A study of Homo sapiens with 16 samples.

Results

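The genes described here are ALDH1A1, CD44, PROM1, KIT, LGR5 and KLF4, 6 genes that are in common use as markers of stem-like cells in ovarian cancer. For each gene, a window of the human genome (hg19, GRCh37) was set to span the gene, with edges rounded to 10 kb, and was extended by 50 kb per side, and all listed peaks that overlapped the extended windows were taken. Of 179689 peaks in 8 lists, 21 overlapped the windows. H3K27ac had been profiled by ChIP-seq in the cisplatin (cPt)-sensitive line A2780, in its cPt-treated, resistant derivative A2780cis, in the corresponding pair CAOV4 and CAOV4cis, and in A2780 cells after 1 week of MBD3 knockdown with the shRNA shMBD3.26 or shMBD3.232. H3K9ac had been profiled in A2780 and A2780cis. A2780 and CAOV4 were untreated, and both resistant lines were kept in medium with cPt. The authors made CAOV4cis by treating CAOV4 with increasing cPt, and the paper describes its exposure as shorter than that of A2780cis. According to the paper, knockdown was induced with doxycycline in Tet-on competent cells, and these cells were sorted for the GFP of the shRNA vector. Their comparison with untransduced A2780 thus also holds any effect of the Tet-on system, transduction, selection, doxycycline and sorting. A control shRNA was not analysed here. All groups are epithelial ovarian cancer lines or cells derived from them, with 1 library each. No difference described here thus has a replicate check, and no p-value was computed.

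Acetylation of histone H3 at lysine 27 marks active promoters and enhancers, and acetylation at lysine 9 is found mainly at active promoters. ALDH1A1 encodes a cytosolic aldehyde dehydrogenase that oxidizes retinaldehyde to retinoic acid, and its activity is used to sort stem-like tumor cells. CD44 is the cell surface receptor for hyaluronan, PROM1 encodes the membrane glycoprotein CD133, KIT (CD117) is the receptor tyrosine kinase for stem cell factor, and LGR5 is a receptor for R-spondins that enhances Wnt signaling. KLF4 is a zinc finger transcription factor and one of the factors used to reprogram somatic cells to pluripotency.

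The extended windows lay on chr9:75460001-75620000 for ALDH1A1, chr11:35110001-35310000 for CD44, chr4:15910001-16140000 for PROM1, chr4:55470001-55660000 for KIT, chr12:71780001-72030000 for LGR5 and chr9:110190001-110310000 for KLF4. All of them lay within the part of the genome for which the lists hold peaks, whereas chromosomes 20, 21 and 22 and the far ends of chromosomes 1 to 12 are without peaks in every list. The lists held 15365 to 28662 peaks each. Their boundaries lie on a grid of 200 bp, so that a peak of 200 bp is the narrowest that can be listed. The lists give the position of a peak and no height, so that read depth at a peak is unknown. A window without a listed peak can therefore still hold signal under the authors' threshold.

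The promoters of 4 of the genes are shown because the lists treat them differently: KLF4 and CD44 had peaks in the gene window in some lines, and KIT and ALDH1A1 had none in any list. Each sequence holds the 250 bases before the start of the gene in RefSeq (GRCh38.p14), 5′ to 3′ on the strand of the gene. It lies on chr9:107489770-107490019 (minus strand) for KLF4, chr11:35138921-35139170 (plus) for CD44, chr4:54657707-54657956 (plus) for KIT and chr9:72953054-72953303 (minus) for ALDH1A1, in that build and not in the build of the peak lists. Capitals mark the GC box GGGCGG on either strand, the recognition sequence of the Sp1 family of zinc finger factors.
KLF4: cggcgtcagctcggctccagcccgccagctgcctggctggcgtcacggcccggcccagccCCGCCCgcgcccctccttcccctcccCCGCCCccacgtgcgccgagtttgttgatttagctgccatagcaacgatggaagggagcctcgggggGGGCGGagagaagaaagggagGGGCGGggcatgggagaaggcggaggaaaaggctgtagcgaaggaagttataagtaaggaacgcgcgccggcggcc
CD44: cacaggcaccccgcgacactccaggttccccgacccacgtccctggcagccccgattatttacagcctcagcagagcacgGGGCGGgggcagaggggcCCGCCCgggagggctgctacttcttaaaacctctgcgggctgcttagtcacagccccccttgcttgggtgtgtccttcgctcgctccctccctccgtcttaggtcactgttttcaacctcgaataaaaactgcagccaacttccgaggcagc
KIT: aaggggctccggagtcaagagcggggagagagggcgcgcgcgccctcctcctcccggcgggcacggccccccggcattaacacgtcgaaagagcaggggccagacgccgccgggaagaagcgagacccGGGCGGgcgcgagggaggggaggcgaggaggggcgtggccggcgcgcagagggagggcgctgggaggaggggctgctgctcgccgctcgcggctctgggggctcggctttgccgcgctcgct
ALDH1A1: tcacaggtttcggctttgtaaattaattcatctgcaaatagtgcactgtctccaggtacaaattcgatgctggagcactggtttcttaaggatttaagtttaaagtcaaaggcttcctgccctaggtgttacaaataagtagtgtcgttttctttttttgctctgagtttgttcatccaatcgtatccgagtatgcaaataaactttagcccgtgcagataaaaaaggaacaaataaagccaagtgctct

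The GC box was found 4 times in the KLF4 promoter, 2 times in that of CD44, 1 time in that of KIT and 0 times in that of ALDH1A1, with no overlap with another match. It was present in 42.6% of the 35116 promoters of the same length. The sequence TATAAA was found in none of the 4 promoters, against 10.7% of all promoters, and the E-box CACGTG was found 1 time, in KLF4, against 6.34%. The GC content was 76.4% for KIT, 69.2% for KLF4, 62.4% for CD44 and 38.4% for ALDH1A1, with a median of 58.0% over all promoters. CpG dinucleotides numbered 34, 25, 15 and 6 in the same order, with a median of 11. KIT, with no listed peak, thus had the most GC-rich and CpG-rich of these sequences, and ALDH1A1, also with no listed peak, the least. Promoters of PROM1 are in the same table with 4 start sites, and their GC content ranged from 56.8% to 68.8%. LGR5 was not matched.

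Most windows of these genes held no listed peak. Over 6 genes and 8 lists, a peak was present in 9 of 48 cases, or 18.8%, and the median covered length was 0 kb. Among 200 kb tiles of the genome, 38.4% to 46.8% held a peak, depending on the list, and the median tile was also at 0 kb in every list. The H3K27ac and H3K9ac lists of sensitive A2780 cells and the shMBD3.232 list held no peak in any of the 6 windows. The A2780cis lists held 3 H3K27ac and 2 H3K9ac peaks, all at KLF4. The shMBD3.26 list held 2 peaks, the CAOV4 list 8 and the CAOV4cis list 6. KLF4 was the gene with a peak in the most lists, 5 of 8, followed by CD44 with 2, PROM1 and LGR5 with 1 each, and ALDH1A1 and KIT with 0.

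**Figure D1:**
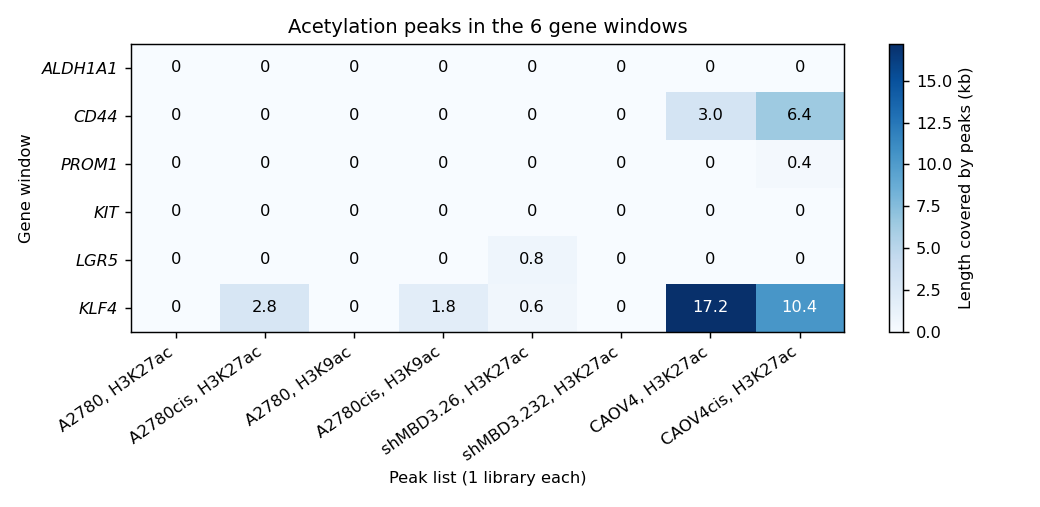
Length covered by listed peaks (kb, color and printed value) in the window of each gene (rows) for each of the 8 peak lists (columns, 1 library each). The largest values are 17.2 kb and 10.4 kb for KLF4 in CAOV4 and CAOV4cis, and the ALDH1A1 and KIT rows are at 0 throughout.

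ALDH1A1 and KIT had no listed peak in any line or under any treatment. Of all 12901 tiles, 34.8% were without a peak in all 8 lists, a share that includes gaps of the assembly. For KIT, the nearest peak was also far away. It lay 419 to 420 kb upstream of the gene window in the 4 H3K27ac lists of A2780 and its derivatives, and 587 to 588 kb upstream in both H3K9ac lists and in CAOV4 and CAOV4cis. For ALDH1A1, the nearest peak lay 519 to 529 kb downstream in all 6 lists of A2780 and its derivatives. In CAOV4, the nearest peak was at 176 kb upstream, on chr9:75746401-75748000, and in CAOV4cis at 417 kb downstream. In A2780 and its derivatives, neither the resistant line nor the knockdown cells thus had a listed peak within 519 kb of ALDH1A1 or within 419 kb of KIT.

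CD44 separated the cell lines. In A2780, A2780cis and both knockdown lists the covered length was 0 kb for H3K27ac, it was also 0 kb for H3K9ac in A2780 and A2780cis, and the nearest peak lay 213 to 221 kb upstream of the gene window. In CAOV4 3.0 kb were covered by 3 peaks, and in CAOV4cis 6.4 kb, also by 3 peaks. In both CAOV4 lines 1 peak lay at the 5′ edge of the gene window, the side on which the gene starts. It measured 2.4 kb in CAOV4, on chr11:35159601-35162000, and 3.2 kb in CAOV4cis, on chr11:35160401-35163600, and the peaks overlapped. The other peaks did not overlap between CAOV4 and CAOV4cis. In CAOV4, a peak of 0.2 kb lay inside the gene window and a peak of 0.4 kb in the downstream flank. In CAOV4cis, a peak of 1.4 kb lay near the 3′ edge of the gene window, from 97.0 to 98.4 kb, and a peak of 1.8 kb in the downstream flank. That flank also holds part of the neighboring glutamate transporter gene SLC1A2. The peak at the 5′ edge of CD44 ranked 7447 among 12992 stitched clusters of CAOV4 and 6315 among 13270 of CAOV4cis when neighboring peaks were joined into clusters and ranked by covered length, with a joining distance at the midpoint between 0 and 25 kb. Clusters of equal covered length were ordered by chromosome and position, so that ranks among them are arbitrary.

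**Figure D2:**
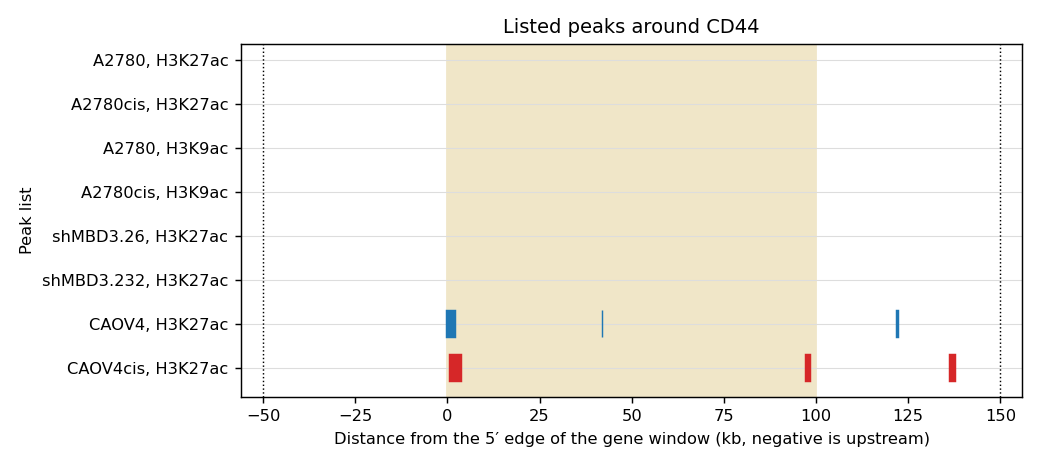
Positions of listed peaks (bars) around CD44 in kb from the 5′ edge of the gene window (shaded), for each peak list. Dotted lines are the edges of the extended window. Bars are present only for CAOV4 (blue) and CAOV4cis (red), and the pair at 0 kb overlaps.

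PROM1 had 1 listed peak, in CAOV4cis. It measured 0.4 kb, or 2 steps of the grid, lay on chr4:16036001-16036400, about 54 kb from the 5′ edge of the gene window, and was absent from the CAOV4 list. In the other 7 lists the nearest peak lay upstream of the gene window, at 108 kb in A2780cis H3K27ac, 118 kb in A2780cis H3K9ac and 135 to 139 kb in the rest. The PROM1 window also holds FGFBP1 and FGFBP2, and no list held a peak at either side of PROM1 within it.

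LGR5 had 1 listed peak, in A2780 with shMBD3.26. It measured 0.8 kb, lay on chr12:71833201-71834000, from 3.2 to 4.0 kb from the 5′ edge of the gene window, and had no partner in untransduced A2780 or with shMBD3.232. That edge is rounded to 10 kb, so the peak can lie closer to the gene start, and its distance from the start was not determined. In the other lists the nearest peaks lay just outside the window, 51 to 77 kb downstream of the gene, on the side of the neighboring gene ZFC3H1. When the window was extended by 100 kb instead of 50 kb, every list had peaks there, and the covered length was 14 kb in A2780, 10.6 kb with shMBD3.26 and 6.4 kb in CAOV4, so that shMBD3.26 was then below A2780. Inside the LGR5 window itself, the peak with shMBD3.26 was the only listed one.

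**Figure D3:**
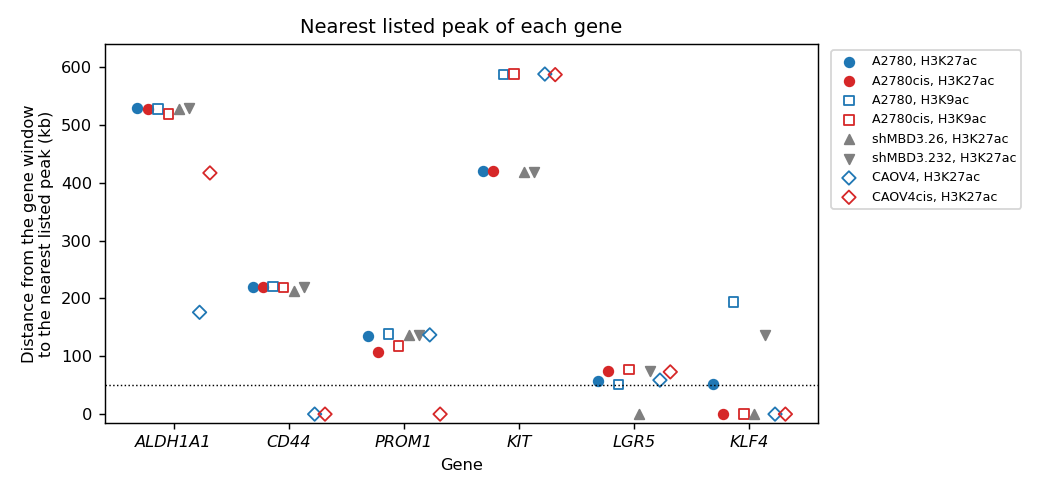
Distance in kb from each gene window to the nearest listed peak of each list (points, 1 library each); 0 means a peak inside the gene window, and the dotted line is at 50 kb, the edge of the extended window. ALDH1A1 and KIT have no point below 176 kb, whereas 5 of the 8 points of KLF4 are at 0.

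KLF4 had the longest covered length of the 6 genes in CAOV4, CAOV4cis and A2780cis. The covered length of H3K27ac was 0 kb in A2780, 2.8 kb in A2780cis, 0.6 kb with shMBD3.26, 0 kb with shMBD3.232, 17.2 kb in CAOV4 and 10.4 kb in CAOV4cis. That of H3K9ac was 0 kb in A2780 and 1.8 kb in A2780cis. Only the part of a peak inside the extended window is counted. In A2780cis, 0.2 kb of the 1.8 kb of H3K9ac lay in the gene window, and the rest was part of a 4.6 kb peak at the upstream border. For H3K27ac, 1.4 kb of the 2.8 kb lay in the gene window. The CAOV4 lines were thus higher than all lists of A2780 and its derivatives, and sensitive A2780 was at 0 for both marks. In CAOV4, the peaks covered 14.3% of the window and in CAOV4cis 8.67%, where the medians over 200 kb tiles with a peak were 3.0% and 3.2%. The extended KLF4 window measures 120 kb and is set on a gene, whereas the tiles are longer and placed without regard to genes. These shares are thus not directly comparable.

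The KLF4 gene measures 4.9 kb in RefSeq and its window 20 kb, so that a distance from the 5′ edge of the window is not a distance from the gene start. A peak of 6.2 kb lay in the gene window in both CAOV4 lines, on chr9:110249801-110256000 in CAOV4 and on chr9:110249201-110255400 in CAOV4cis. A narrower peak lay at the same place in A2780cis, on chr9:110251401-110252800, with 1.4 kb, and with shMBD3.26, on chr9:110252201-110252800, with 0.6 kb. These 4 H3K27ac peaks overlapped each other on chr9:110252201-110252800. Upstream of the gene window, from 10.2 to 2.8 kb before its edge, CAOV4 had a peak of 7.4 kb, and CAOV4cis had one of 4.2 kb inside the same stretch, from 9.8 to 5.6 kb. No list of A2780 or its derivatives had a peak in this upstream stretch. CAOV4 alone had 3 further narrow peaks, of 0.8 kb in the gene window and of 1.0 and 1.8 kb in the downstream flank.

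**Figure D4:**
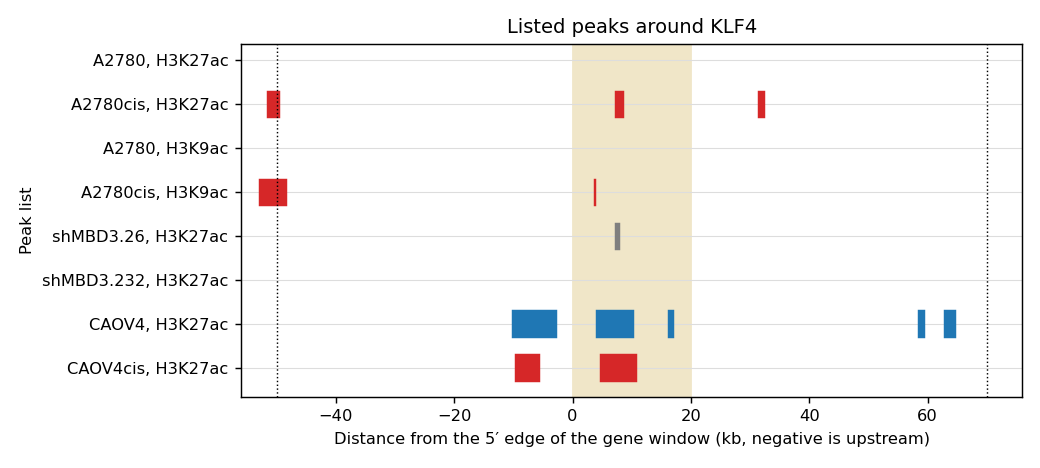
Positions of listed peaks (bars) around KLF4 in kb from the 5′ edge of the gene window (shaded), for each peak list, with the extended window between dotted lines. Both CAOV4 lines have wide peaks in the gene window and just upstream, A2780cis has a narrow peak in the gene window, and A2780 has none.

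A2780cis also had a peak at the upstream border of the KLF4 window. For H3K27ac it measured 2.0 kb, on chr9:110309601-110311600, and for H3K9ac 4.6 kb, on chr9:110308401-110313000, so that the former lay inside the latter. The H3K27ac peak in the gene window had no H3K9ac peak over it. The H3K9ac list held a peak of 0.2 kb on chr9:110256201-110256400 instead, 1 step of the grid. Of the 3 H3K27ac peaks of A2780cis at KLF4, 1 overlapped an H3K9ac peak, against 52.9% of all 20899 H3K27ac peaks of this line. In A2780, the nearest H3K27ac peak to the KLF4 window lay 52.2 kb downstream, just outside the extended window, and measured 0.6 kb.

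With the same joining distance, the peaks in and upstream of KLF4 formed a cluster of 3 peaks with 14.4 kb covered in CAOV4, on chr9:110243001-110270200. It ranked 1081 among 12992 clusters by covered length, within the first 8.32%. In CAOV4cis, the cluster on chr9:110249201-110269800 had 2 peaks with 10.4 kb covered and ranked 1760 among 13270, within the first 13.3%. In A2780cis, no peaks at KLF4 were joined, and the cluster with the gene window's peak ranked 10235 among 12915. These ranks are by length and not by height, with clusters of equal length ordered by chromosome and position.

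The lines and treatments were compared by the covered length per window. A window was called when the longer covered length was at least 2 times the shorter and at least 5 kb longer, and the same rule was applied to tiles with a peak in at least 1 of the lists compared. For H3K27ac in A2780cis against A2780, 0 of 6 windows were called, where 15.5% of 6713 tiles were. For H3K9ac in the same lines it was also 0, against 16.0% of 5927 tiles. For CAOV4cis against CAOV4 it was 0, against 9.75% of 6750 tiles. For shMBD3.26 and shMBD3.232 against untransduced A2780 it was 0 in both comparisons, against 6.38% of 6426 and 7.87% of 6126 tiles. These counts rest on few windows with any peak, namely 1, 1, 3, 2 and 0 in the order given. For CAOV4 against A2780, KLF4 was called higher, with 17.2 kb against 0 kb, and CD44 with 3.0 kb against 0 kb was not, where 38.8% of 7307 tiles were called. The comparisons of A2780cis, of both shRNAs and of CAOV4 share the A2780 list, in which all 6 windows were at 0 kb.

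At the level of single regions, made by merging peaks of both lists that shared at least 1 bp, all regions found at these genes in A2780 and A2780cis were A2780cis-only. There were 3 for H3K27ac, where 17.9% of all regions were A2780cis-only, and 2 for H3K9ac, where 21.7% were. Over a width of 2 kb, 0 of the former and 1 of the latter remained. The regions of both marks all lay at KLF4. The A2780 lists held no peak in any of these windows, so that a region within a window could only be of the other list. Only the regions at the upstream border of KLF4 reached past a window. The counts against A2780 are thus not read as an excess over the genome-wide shares. Genome-wide, 18.0% of regions were in the shMBD3.26 list and without a partner in A2780. At these genes both regions were, at LGR5 and KLF4, which also follows from the empty A2780 windows. Neither was found with shMBD3.232, so that the lists of the shRNAs differed at both genes by narrow peaks of 0.8 and 0.6 kb. The shMBD3.232 list is also the shorter, with 19475 peaks against 23960. Whether the shRNAs differ in effect at these genes was not tested. In the CAOV4 pair, 11 regions were found, of which 3 were in both lines, 3 were CAOV4cis-only and 5 were CAOV4-only, where 33.8% and 29.1% of all regions were CAOV4cis-only and CAOV4-only, respectively. The 3 common regions were the 5′ edge of CD44, the KLF4 gene window and the stretch upstream of KLF4. Against A2780, 31.2% of all regions were CAOV4-only. At these genes all 8 regions of CAOV4 were, which again follows from the empty A2780 windows. At all 4 of the remaining genes (ALDH1A1, PROM1, KIT and LGR5), CAOV4 and A2780 were alike in having none.

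Windows free of peaks in a whole cell line were frequent genome-wide. Of the 6 windows, 4 had no peak in any of the 6 lists of A2780 and its derivatives, where this held for 44.3% of tiles, and 3 had none in CAOV4 or CAOV4cis, where 47.7% of tiles had none.

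Other genes of the same systems were placed by windows of the same kind from a list of 24 stem cell genes, and 19 of them lay within the part of the genome with listed peaks. Of these 19, 17 had a peak in at least 1 list and 2 had none. Of the 6 marker genes, 4 had a peak and 2 had none, where 34.8% of tiles had none in all 8 lists. With so few genes, no difference between the gene groups is read from these counts. RSPO3, a ligand of LGR5, and the transcription factor gene KLF5 were without a peak in all lists, as ALDH1A1 and KIT were. By covered share of the window, summed as differences over the 8 lists, the gene of the list closest to KLF4 was KITLG, with 12.9 percentage points, followed by ALDH1A3 with 14.8. For CD44, PROM1 and LGR5 the measure returned the genes at 0 and is not informative.

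The windows of KITLG, ALDH1A3 and LGR4, a ligand gene and relatives of the marker genes, had peaks in A2780cis, CAOV4 and CAOV4cis. Those of KIT, ALDH1A1 and LGR5 had none in these lists. KITLG, ALDH1A3 and LGR4 are described because they were called, and not every gene of the same roles was like them. The ligand gene RSPO3 and the enzyme gene ALDH1A2 also had no peak in these lists. The receptor gene LGR6 lay outside the part of the genome with listed peaks. Covered lengths of the listed genes are over windows extended by 50 kb per side, so that peaks at neighboring genes can be included. Neighbors were not examined for these windows. KITLG encodes stem cell factor, the ligand of KIT. Its H3K27ac covered length was 2.2 kb in A2780, 8.6 kb in A2780cis, 0 kb with both shRNAs, 23.6 kb in CAOV4 and 24.2 kb in CAOV4cis, and H3K9ac covered 0 kb in A2780 and 7.6 kb in A2780cis. KIT itself was at 0 kb in all of these lists. ALDH1A3 encodes another retinaldehyde dehydrogenase that contributes to aldehyde dehydrogenase activity in tumor cells. It had 0.2 kb of H3K27ac in A2780 and 7.8 kb in A2780cis, 0 kb and 7.0 kb of H3K9ac, 15.4 kb of H3K27ac in CAOV4 and 18.0 kb in CAOV4cis, whereas ALDH1A1 was at 0 kb throughout. ALDH1A2, the third enzyme of this group, had a single H3K9ac peak of 0.2 kb, in A2780. LGR4, a relative of LGR5 that also binds R-spondins, went the other way, from 29.6 kb in A2780 to 9.6 kb in A2780cis for H3K27ac and from 22.8 kb to 9.0 kb for H3K9ac. It differed little between CAOV4 with 21.2 kb and CAOV4cis with 20.4 kb. KITLG and ALDH1A3 were called higher and LGR4 lower in A2780cis for both marks. In CAOV4cis against CAOV4, 0 of the 11 genes with a peak in either line were called, where 9.75% of tiles were, and the difference between the pairs was not tested.

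**Figure D5:**
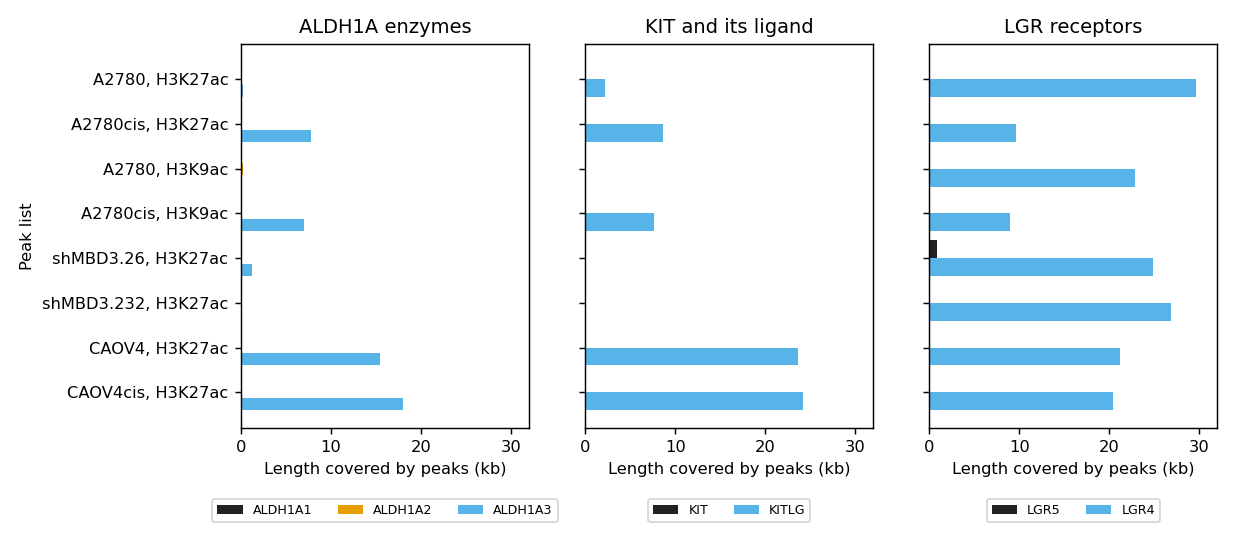
Length covered by listed peaks (kb) in the extended windows of the ALDH1A enzyme genes, of KIT and its ligand gene KITLG, and of the receptor genes LGR5 and LGR4, in each peak list (bars, 1 library each). The black bars of the marker genes ALDH1A1, KIT and LGR5 are at or near 0, while ALDH1A3 and KITLG are longer in A2780cis than in A2780 and LGR4 is shorter. RSPO3 and LGR6 are not drawn.

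Over the whole list, 16 genes had an H3K27ac peak in A2780 or A2780cis, and 3 of them were called higher in A2780cis (KITLG, ALDH1A3 and the adhesion molecule gene ALCAM, with 11 kb against 4.6 kb) and 1 lower (LGR4), where 15.5% of tiles were called in either direction. For H3K9ac, 3 of 15 were called higher, with the integrin gene ITGA6 at 18.6 kb against 3.8 kb beside KITLG and ALDH1A3, and 2 lower, with the surface marker gene THY1 at 2.0 kb against 15.4 kb beside LGR4, where 16.0% of tiles were called. With shMBD3.26, 1 of 15 was called, where 6.38% of tiles were, namely the window of the pluripotency factor gene POU5F1, with 10.6 kb against 0.8 kb in A2780, and it was at 1.2 kb with shMBD3.232. With shMBD3.232 it was 0 of 15, where 7.87% of tiles were called. Between CAOV4 and A2780, KITLG and ALDH1A3 were called higher in CAOV4 and 2 genes lower, of 15 with a peak, where 38.8% of tiles were called. The 2 genes called lower in CAOV4 were ITGA6, with 0 kb against 6.6 kb in A2780, and LIN28B, with 0 kb against 112.4 kb. LIN28B encodes an inhibitor of let-7 microRNA maturation. With so few genes, nothing about the list as a whole is read from these counts.

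The labelled cell type was checked with the windows of 6 epithelial and Müllerian genes. H3K27ac peaks at the keratin genes KRT8 and KRT18 covered 57.4 to 78.0 kb in CAOV4 and CAOV4cis and 0 to 7.2 kb in A2780 and its derivatives, and those at the cadherin gene CDH1 covered 42.8 to 52.0 kb and 2.0 to 5.4 kb. EPCAM had peaks in all 8 lists. WT1 had peaks only in both CAOV4 lines and PAX8 only in A2780 and its derivatives, so that each of these lineage markers was without a listed peak in 1 of the lines.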

How the data were processed

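H3K27ac and H3K9ac ChIP-seq peak lists of 8 libraries were used, with 1 library per group. According to the methods and the processing notes of the labels, the authors aligned reads with Bowtie2 on the human build hg19 (GRCh37), applied quantile normalization with their own R code and ran MACS2, and 1 list was deposited per ChIP library. Tool versions are not given in the sources used here. The deposited lists hold the start and end of each peak, and the deposited score, which is 0 for every peak, was left aside. The step that placed boundaries on a grid of 200 bp is not given in the sources used here. Depth per sample is unknown. Input libraries were not analysed here.

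Peaks off the standard chromosomes were left out, 6 in all. Covered length per gene window, calls, merged regions, stitched clusters and 200 kb tiles up to the last listed peak of each chromosome were computed with Python 3.11.15, and figures with matplotlib 3.10.9. Samples were grouped by their titles. The 6 comparisons were described without a test, since no group has a replicate. All 6 marker genes were named in every list, as were genes of the list of 24 that were called. The windows of this list were set by hand to 10 kb and no annotation of hg19 was used. The genes and lists were chosen with earlier results of these data known. Promoters and gene neighbors are from RefSeq (GRCh38.p14), with no position converted between builds. Alternatives were the window extension, the choice of peaks, the fold, the overlap and the stitching distance.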

Additional observations from a re-analysis of the deposited data

Results flagged for a closer look

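KLF4 was singled out because the difference between the resistant and the sensitive line had opposite signs in both cell line pairs. For H3K27ac, the covered length in A2780cis minus that in A2780 was 2.8 kb, and in CAOV4cis minus CAOV4 it was -6.8 kb. Each pair has 1 library per line, so that the difference between the pairs was not tested, and neither difference was called at a 2-fold difference of at least 5 kb.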

How the results depend on the processing

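Of 134 counts of called windows, regions and clusters recomputed under an alternative, 120 stayed within 1.5 times the reported count. Of 324 differences of single genes, 313 kept their call and direction. Many of these compared 0 kb with 0 kb, as all those of ALDH1A1 and KIT did under every setting. Many of the counts were likewise 0 and stayed at 0. A difference that fell to 0 kb was also taken as kept. That of KLF4 for H3K27ac in A2780cis against A2780 fell from 2.8 kb to 0 kb with peaks over 2 kb. These shares are thus not read as a measure of stability. No called difference changed sign, and 1 that was not called did: LGR5 with shMBD3.26 against A2780 went from 0.8 kb to -3.4 kb with windows extended by 100 kb. With a 1.5-fold difference, 1 window (KLF4) was called lower in CAOV4cis against CAOV4. With windows extended by 100 kb, 2 windows (CD44 and KLF4) were called higher and 1 (LGR5) lower in CAOV4 against A2780. With no minimum difference, a setting chosen after seeing the data, the windows called higher numbered 1 for H3K27ac and 1 for H3K9ac in A2780cis against A2780 (KLF4), 2 in CAOV4cis against CAOV4 (CD44 and PROM1), 2 with shMBD3.26 (LGR5 and KLF4) and 2 in CAOV4 against A2780. With peaks over 2 kb, regions in 1 list only numbered 0 for A2780cis H3K27ac, 1 for A2780cis H3K9ac, 0 for CAOV4cis, 0 for CAOV4 against CAOV4cis, 0 for shMBD3.26 and 3 for CAOV4 against A2780, so that the listed peaks at PROM1 and LGR5 and the H3K27ac peaks of A2780cis at KLF4 do not pass this width. The 17 stitched clusters became 20 at 5 kb and 16 at 25 kb. No paired analysis was possible because each group has 1 library and the labels give no replicate numbers. The unknown read depth limits what a missing peak can show.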
